A study of Mus musculus with 8 samples.

Results

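Channel genes of the Kcn (potassium), Cacn (calcium), Clcn (chloride), Scn (sodium), Trpc, Trpm and Trpv (transient receptor potential, TRP) families were examined in IMCD3, a cell line established from collecting duct of the inner medulla in mouse kidney. Members were the array probes whose gene name starts with one of these prefixes (for sodium channels, Scn followed by a digit), leaving out Kcnj1. This gave 252 probes for 152 gene names, of 41174 probes for 27745 names on the array. Starved IMCD3 cells had been kept for 48 h in medium without fetal calf serum to induce the growth of cilia, and unstarved IMCD3 cells were grown with 10% serum, had been replated at lower density on the previous day and were not yet confluent. Serum and cell density therefore differ together between the groups. The 8 samples, 4 per group, were hybridised as starved and unstarved pairs on 4 Agilent 2-colour arrays that make up 2 replicates, each from its own dish, and the series is titled as a screen for genes acting downstream of FOXJ1, which drives motile ciliogenesis. Arrays 1 and 3 belong to replicate 1, with starved RNA in Cy5, and arrays 2 and 4 to replicate 2, with starved RNA in Cy3, so that replicate and dye cannot be told apart.

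Ion channels are membrane proteins that let selected ions flow down gradients which pumps such as the sodium-potassium ATPase maintain. In tubule epithelium, potassium channels set the membrane voltage and recycle potassium, chloride channels carry transcellular chloride or, as exchangers, acidify endosomes and lysosomes, and several TRP channels respond to stretch, osmolality or calcium. Voltage-gated sodium and calcium channels are best known from nerve and muscle. The arrays measure transcripts and say nothing of channel protein or current.

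The probes behind the main results are shown here because several genes turn on which stretch of the transcript was measured. Sequences are those of the array design with its mm8 positions, 5′ to 3′, all in lower case because no part is marked. The 60-base probe is given whole where its position spans an intron, and by its 30 bases at the 5′ end otherwise.
Kcnj16 A_52_P550325, chr11:110842680-110842739, + strand: tagatgctcttgattcctgatcctgagagg
Kcnj16 A_52_P550331, chr11:110842276-110842335, + strand: ctcagaaacactgagatgagaaagtaaaac
Kcnj16 A_51_P357773, chr11:110841613-110841672, + strand: ccttttgcagtgccaaacaactggactgga
Scn8a A_52_P183239, chr15:100869680-100869739, + strand: catgtttgacagacatctctgacatacagc
Kcnq1 A_51_P194883, chr7:143236225-143236284, + strand: gaccaatgctcagactccagcctctttcac
Trpv4 A_51_P269203, chr5:114883198-114883257, − strand: gacctgccacagatctgacctgctgcagcc
Trpm4 A_52_P138967, chr7:45172887-45173026, − strand: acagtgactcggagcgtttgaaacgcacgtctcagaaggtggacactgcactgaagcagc
Clcn5 A_51_P506236, chrX:6316621-6316680, − strand: ggcttgttgtggatataaaacaaggacatt

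A probe was tested where its signal stood well above background on every array for starved cells, for unstarved cells or for both. Of the 252 channel probes, 73 did (29.0%), for 51 genes, against 59.7% of all probes on the array. Per array, 24546 to 25350 of all probes stood well above background in starved cells and 24529 to 25855 in unstarved cells. On no array and in neither group did 160 channel probes rise well above background. Most voltage-gated potassium, sodium and calcium channel genes, all 3 sodium channel beta subunits and all Kcne and Kcnip subunits did not meet this minimum. No absence can be read from a probe that is not well above background.

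Among the 73 tested probes, 16 were higher and 10 lower in starved cells at a Benjamini-Hochberg adjusted p below 0.05 (limma, over all 24598 tested probes of the array). That is 35.6% of the tested channel probes, against 29.5% of all tested probes; 21.9% were called higher, against 16.4%, and 13.7% lower, against 13.2%. These shares, for calls of any size, lie near those of the whole array. Calls of at least 2-fold made up 9.6% of the tested channel probes, against 3.7% of all tested probes. They were 7 channel probes, with all probes of Kcnj16 among them, and the difference in share was not tested. With each array centred on its median in place of loess, 3 channel probes were called higher and 0 lower, whereas fits that take their spread from the repeat runs called 30 to 31 higher and 26 to 29 lower. The median log2 ratio of starved over unstarved cells was 0.01 over the channel probes and 0.00084 over all tested probes. All 26 called probes had the same sign on all 4 arrays, which follows largely from how a call is made and is no added support. Counted by the brightest tested probe of each gene, 11 of the 51 tested genes were higher and 9 were lower, 39.2% together, against 30.4% of all 16141 tested genes counted in the same way (17.6% higher and 12.8% lower). The class counts given below stand against these shares, and each class holds too few tested genes for its count to be read as a trait. In a bulk sample, fewer cells of a type and less RNA per cell cannot be told apart.

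**Figure D1:**
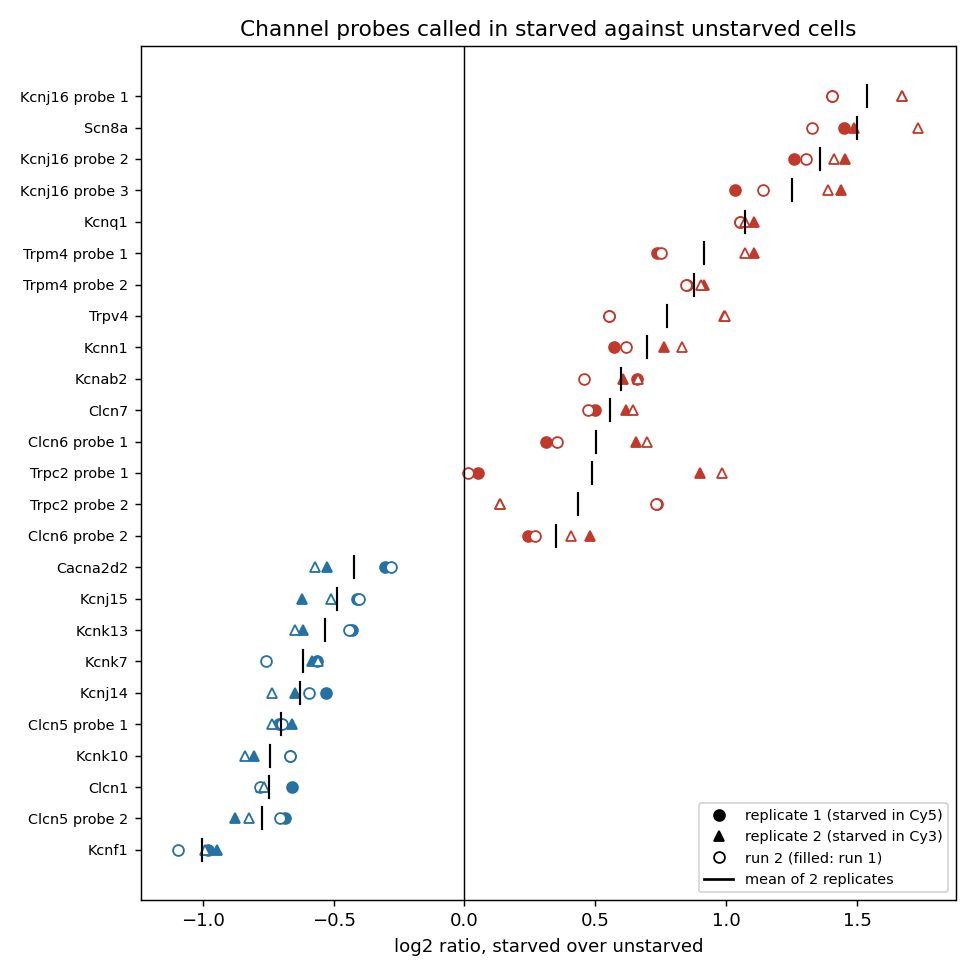
Log2 ratio of starved over unstarved cells on each of the 4 arrays (x axis) for 25 of the 26 called channel probes (y axis); circles are replicate 1, triangles replicate 2, open symbols the second run, red higher and blue lower in starved cells, and bars the mean of 2 replicates. All points of a drawn probe lie on one side of 0, as the calling largely requires, and the circles and triangles of Trpc2 lie far apart.

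Among the potassium channels, Kcnj16 was higher in starved cells at all 3 of its probes. Kcnj16 encodes an inward rectifier subunit that forms heteromers with the products of Kcnj10 or Kcnj15 and sits in the basolateral membrane of tubule cells. Its brightest probe had a log2 level of 14.40, 14.67, 14.51 and 14.48 on arrays 1 to 4 in starved cells, against 13.00, 13.00, 13.10 and 12.81 in unstarved cells. The groups did not overlap, and starved cells held 2.91-fold more transcript (log2 ratio 1.54 ± 0.13 SE, n = 2, adjusted p = 9.44e-08). Its other 2 probes, on the same transcript, gave log2 ratios of 1.36 (adjusted p = 3.43e-07) and 1.25 (adjusted p = 1.37e-06). All 3 Kcnj16 probes shown above therefore moved alike.

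The partner genes of Kcnj16 were not called higher. Kcnj15 fell by 0.49 on the log2 scale (SE 0.13, adjusted p = 0.00803), with log2 levels of 8.06, 8.06, 8.32 and 8.09 in starved cells, against 8.47, 8.68, 8.72 and 8.60 in unstarved cells. Kcnj10 had a log2 ratio of 0.20 (adjusted p = 0.274), with levels that overlapped between the groups. Kcnj14, an inward rectifier that belongs to the strongly rectifying subfamily, fell by 0.63 (adjusted p = 0.00122). Its log2 level was 8.18, 8.09, 8.10 and 8.002 in starved cells, against 8.71, 8.74, 8.70 and 8.74 in unstarved cells. Of the 13 inward rectifier genes on the array, 5 were tested, of which 1 was higher and 2 were lower. Kcnj4 was not called, with a log2 ratio of 0.03 at its brightest probe.

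Kcnq1, a voltage-gated potassium channel of epithelia and heart that works together with Kcne subunits, rose 2.10-fold (log2 ratio 1.07 ± 0.13 SE, adjusted p = 5.09e-06). Its log2 level was 8.85, 8.74, 8.72 and 8.76 in starved cells, against 7.80, 7.64, 7.67 and 7.69 in unstarved cells. The 4 log2 ratios lay between 1.05 and 1.11. Kcnf1, a subunit that makes no channel alone but modifies others, was well above background on all 4 arrays in unstarved cells and on 0 arrays in starved cells. Its transcript was at least 1.82-fold lower in starved cells, a bound set against the background. The probe was tested only because of its signal in unstarved cells, so the bound has no test of its own. The measured mean log2 level was 6.75 in starved cells and 7.76 in unstarved cells. Of the 36 voltage-gated pore genes, 30 were not tested. Kcnh2 was not called (log2 ratio -0.04), and Kcnc4 and Kcnh6 were not called either.

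Kcnn1, a small-conductance potassium channel opened by calcium, rose with a log2 ratio of 0.70 ± 0.13 SE (adjusted p = 5.33e-04), with log2 levels of 9.41, 9.43, 9.33 and 9.54 in starved cells, against 8.84, 8.66, 8.71 and 8.71 in unstarved cells. It was the only tested gene of its 8-gene class. Kcnma1 and Kcnn4, the large- and intermediate-conductance calcium-activated channels, were not well above background on enough arrays to be tested. Kcnab2, a cytosolic beta subunit of voltage-gated potassium channels, had a log2 ratio of 0.60 (adjusted p = 0.00171). Its ratios lay between 0.46 and 0.66 on all arrays, although its levels overlapped because array 3 was brighter in both groups. The call was lost with the replicate as a random block (adjusted p = 0.054). Kcnab3 (0.05) and Kcnmb4, a beta subunit of Kcnma1 channels (-0.08), were not called.

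The tandem-pore-domain (Kcnk) family is known for background potassium currents, though not every member need carry one, and 7 of 11 genes were tested. None was called higher and 3 (Kcnk10, Kcnk7 and Kcnk13) were lower, against 17.6% higher and 12.8% lower of all tested genes. By probe, 3 of 10 were lower, against 13.2% of all tested probes. Kcnk10, a channel opened by stretch and lipids, had log2 levels of 8.996, 8.92, 8.95 and 8.91 in starved cells, against 9.66, 9.73, 9.62 and 9.75 in unstarved cells (log2 ratio -0.74 ± 0.13 SE, adjusted p = 2.72e-04). Its second probe gave -0.32 and was not called (adjusted p = 0.0725). Kcnk13 had a log2 ratio of -0.53 (adjusted p = 0.0044), and its levels did not overlap between the groups. Kcnk7 had -0.62 (adjusted p = 0.00136) at its brightest probe, but its second probe, on the RefSeq transcript, gave -0.11 (adjusted p = 0.556). Kcnk1, a background channel of the kidney tubule, was not called (0.31, adjusted p = 0.0878), nor was Kcnk5, a pH-sensitive channel of the proximal tubule (-0.06). The ratio of Kcnk5 was -0.31 in replicate 1 and 0.19 in replicate 2.

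**Figure D2:**
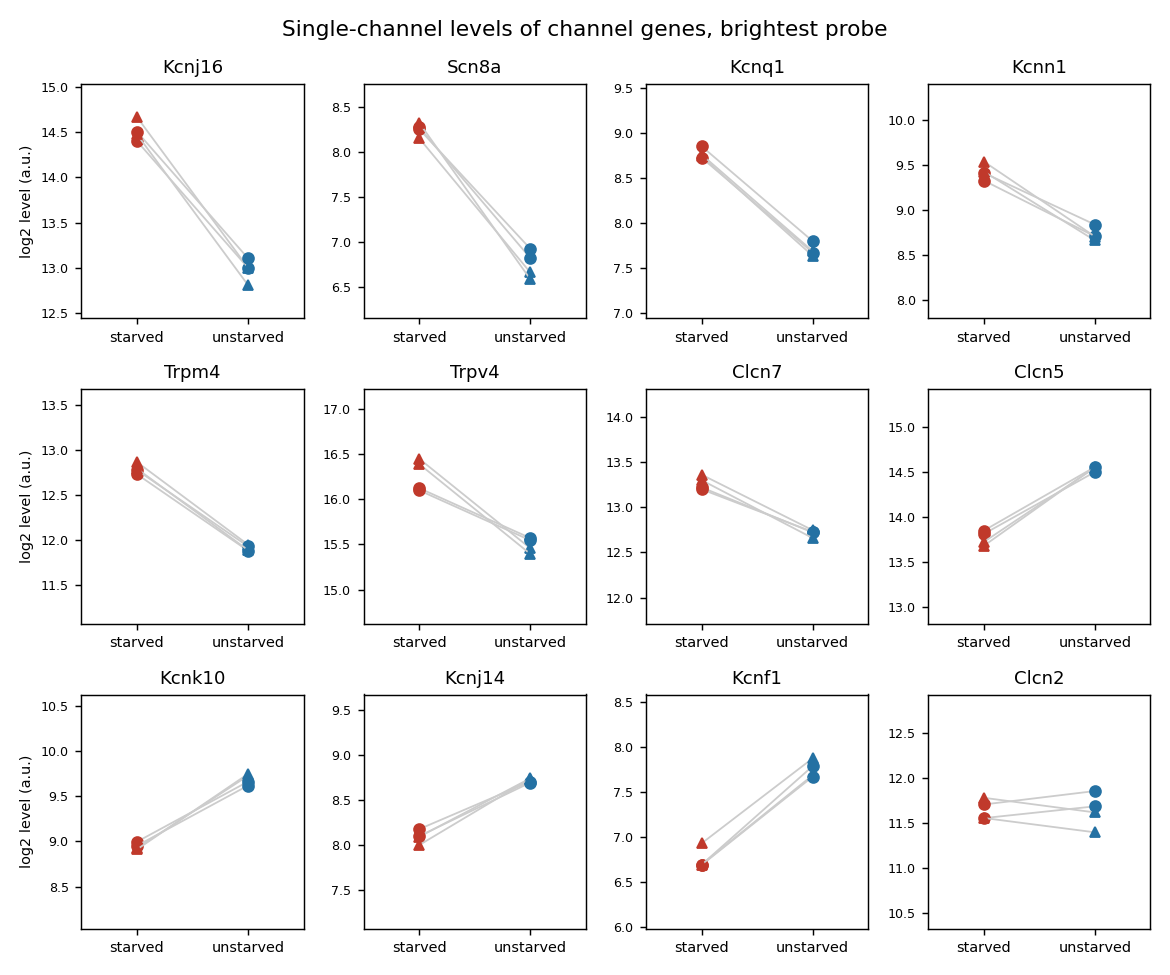
Log2 single-channel level (y axis, arbitrary units, 2.6 units high in every panel) in starved (left) and unstarved (right) cells for the brightest probe of 12 channel genes; circles are replicate 1, triangles replicate 2, and a line joins the samples of one array. The groups are apart in all panels but that of Clcn2, which was not called. All other genes drawn were picked from the called ones, so their separation largely follows from this choice.

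Of 10 sodium channel pore genes, 4 were tested, of which 2 were higher and 0 lower. These channels are opened by depolarisation. Scn8a, best known from neurons, was well above background on all 4 arrays in starved cells and on 0 arrays in unstarved cells. Its log2 level was 8.27, 8.15, 8.25 and 8.32 in starved cells, against 6.82, 6.66, 6.93 and 6.59 in unstarved cells. Against the background, starved cells held at least 2.52-fold more of this transcript. The probe was tested only because of its signal in starved cells, so the bound has no test of its own. The other Scn8a probe, on the same RefSeq transcript, was not well above background on enough arrays to be tested. Its log2 ratio was 0.13, so the rise rests on the brighter probe alone. Scn4a was not called (-0.12), and Scn10a was not either.

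Markers of nerve and muscle were read beside these genes. Of 10 neuron markers on the array, 7 were above background on no array, Snap25 and Elavl3 among them. Tubb3 was lower in starved cells (-0.37) and Syn1 was not called. The summed level of the list ranged from 6618 to 28660 in starved cells and from 7517 to 35058 in unstarved cells. Most of this sum is Syn1, with a mean log2 level of 13.9 in starved and 14.1 in unstarved cells. The sum therefore says little of the other neuron markers. Of 16 muscle markers, 9 were above background on no array, Myh6, Myh7 and Ckm among them. Of the 5 tested muscle markers, 60% were called, against 30.4% of all tested genes. The muscle list summed to 19629 to 20419 in starved cells and 34596 to 35745 in unstarved cells, with Tnni3 higher (1.23) and Actc1 (-2.10) and Tnnt2 (-0.67) lower. The part of such marker changes in the sodium channel results was not tested.

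Of the 25 calcium channel genes on the array (9 pore and 16 auxiliary), 10 were tested and 1 was called. Cacna2d2, an alpha-2-delta subunit that brings pore subunits to the membrane, was lower in starved cells (log2 ratio -0.42 ± 0.13 SE, adjusted p = 0.0213). Its log2 level was 12.21, 11.98, 12.38 and 11.89 in starved cells, against 12.51, 12.50, 12.66 and 12.46 in unstarved cells. None of the 4 tested pore genes was called. The 5 pore probes lay between -0.18, for Cacna1g, and 0.04, and Cacna1h, also of the T-type, had a log2 ratio of 0.03. Cacnb3, a cytosolic beta subunit, had a log2 ratio of -0.19 in replicate 1 and 0.47 in replicate 2 and was not called (0.14, adjusted p = 0.527).

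Of 9 Clcn genes, 7 were tested, and 2 were higher and 2 lower in starved cells. The lower ones are Clcn5 and a probe named Clcn1 that cannot be assigned to that gene. Clcn7, the lysosomal chloride-proton exchanger, had log2 levels of 13.22, 13.36, 13.20 and 13.30 in starved cells, against 12.72, 12.75, 12.73 and 12.66 in unstarved cells (log2 ratio 0.56 ± 0.13 SE, adjusted p = 0.00302). Clcn6, of late endosomes, had log2 ratios of 0.50 (adjusted p = 0.00819) and 0.35 (adjusted p = 0.0489) at its probes. Ostm1, the beta subunit of the Clcn7 exchanger, was not called (0.12, adjusted p = 0.532).

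Clcn5, the exchanger of early endosomes that is lost in Dent disease, was lower in starved cells. Its log2 level was 13.81, 13.68, 13.85 and 13.73 in starved cells, against 14.50, 14.56, 14.56 and 14.55 in unstarved cells (log2 ratio -0.77 ± 0.13 SE, adjusted p = 1.89e-04). The second probe, which lies further 5′, gave -0.70 (adjusted p = 4.43e-04), so both probes fell by nearly the same amount. The related endosomal exchangers Clcn3 (0.25, adjusted p = 0.162) and Clcn4, named Clcn4-2 on the array (0.22, adjusted p = 0.234), and the plasma membrane channel Clcn2 (0.01) were not called.

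The name Clcn1, that of the chloride channel of skeletal muscle, stands for different sequences on the array. The called probe has a log2 ratio of -0.75 (adjusted p = 2.44e-04) and levels of 9.66, 9.55, 9.60 and 9.54 in starved cells, against 10.32, 10.33, 10.38 and 10.30 in unstarved cells. The file describes its source as the channel's transcript disrupted by an inserted ETn transposon, a mobile element with many copies in the mouse genome. The RefSeq probe, which joins exons of the normal transcript, was not well above background. The fall therefore belongs to the probe and cannot be assigned to Clcn1 from these data. The probes were as follows.
Clcn1 A_51_P133618, chr6:42229963-42230022, + strand: ccttctcttcttcgttatgaagctcgagcg
Clcn1 A_52_P516878, chr6:42242917-42243458, + strand: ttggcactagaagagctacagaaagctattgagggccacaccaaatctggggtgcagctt

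**Figure D3:**
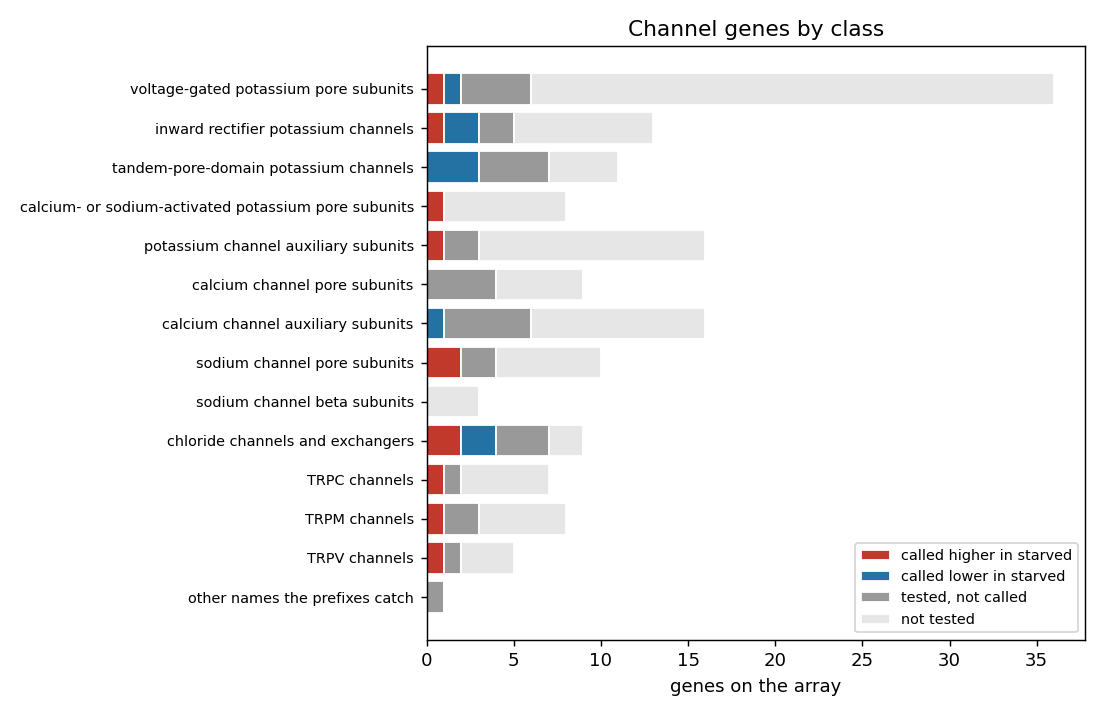
Channel genes on the array (x axis, number of genes) in 14 classes (y axis), by the call of the brightest tested probe in starved against unstarved cells: higher (red), lower (blue), tested but not called (grey) and not tested (light grey). Of 7 tested tandem-pore-domain potassium channel genes, 3 were lower and 0 higher, against 12.8% and 17.6% of all tested genes. Of 36 voltage-gated potassium pore genes, 30 were not tested.

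Of the TRPC, TRPM and TRPV genes, 2, 3 and 2 were tested. In each of these classes 1 gene was called higher and 0 lower, against 17.6% higher and 12.8% lower of all tested genes. Trpv4, a calcium-permeable channel that responds to osmolality and stretch and has been placed in cilia, had log2 levels of 16.12, 16.45, 16.10 and 16.39 in starved cells, against 15.57, 15.46, 15.55 and 15.39 in unstarved cells. Starved cells were 1.71-fold higher (log2 ratio 0.77 ± 0.14 SE, adjusted p = 3.64e-04), and the groups did not overlap. The rise was 0.55 in replicate 1 and 1.00 in replicate 2. Trpv2 was not called (0.30, adjusted p = 0.0818), and Trpv5 and Trpv6, the epithelial calcium entry channels, were not tested.

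Trpm4, a channel for sodium and potassium that calcium opens, rose at both of its probes. The brightest had log2 levels of 12.73, 12.87, 12.78 and 12.80 in starved cells, against 11.88, 11.95, 11.93 and 11.89 in unstarved cells (log2 ratio 0.88 ± 0.13 SE, adjusted p = 4.57e-05). The second, which joins 2 exons and is printed above, gave 0.92 (adjusted p = 4.89e-05). Trpm7, a channel fused to a kinase that carries magnesium and calcium, was not called. Its ratio was 0.56 in replicate 1 and 0.14 in replicate 2 (mean 0.35, adjusted p = 0.0626). Trpm6, its relative in the distal tubule, had a log2 ratio of 0.05.

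Trpc2, whose protein is known from the vomeronasal organ of mice, was called higher at 2 of its 4 tested probes, but each rose mainly in one replicate, and the call of the brightest was lost in 5 of 19 alternative settings. The brightest had log2 ratios of 0.74, 0.13, 0.73 and 0.14 on arrays 1 to 4 (mean 0.44 ± 0.15 SE, adjusted p = 0.0315). The other had 0.05, 0.90, 0.01 and 0.99 (mean 0.49 ± 0.17 SE, adjusted p = 0.0352). Both SEs draw mainly on the spread over all probes and do not measure the gap between the replicates. The first rose mainly with starved RNA in Cy5 and the second with starved RNA in Cy3, and the array file describes the first as a product with an N-terminal domain of the repair protein XRCC1, not as a TRP channel. The remaining tested probes gave 0.14 and 0.04 and were not called, and the exon-joining RefSeq probe was not tested. The called probes were as follows.
Trpc2 A_52_P263289, chr7:101953771-101953830, + strand: aaggtactgagattatgtaagccctttgaa
Trpc2 A_52_P94454, chr7:101956665-101956724, + strand: catggcttgtaagggtttgagcaaatctca

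Trpc1, a stretch- and store-linked channel, was measured by 3 probes between -0.09 and 0.10, none called. Trpc6 was not tested. Trpc4ap, an associated protein that the prefix catches, was bright in both groups and not called at any of 5 probes. Its probes disagreed in the size of the replicate gap. The brightest had ratios between -0.01 and 0.11, while another had -0.38, 0.34, -0.38 and 0.30 on arrays 1 to 4.

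**Figure D4:**
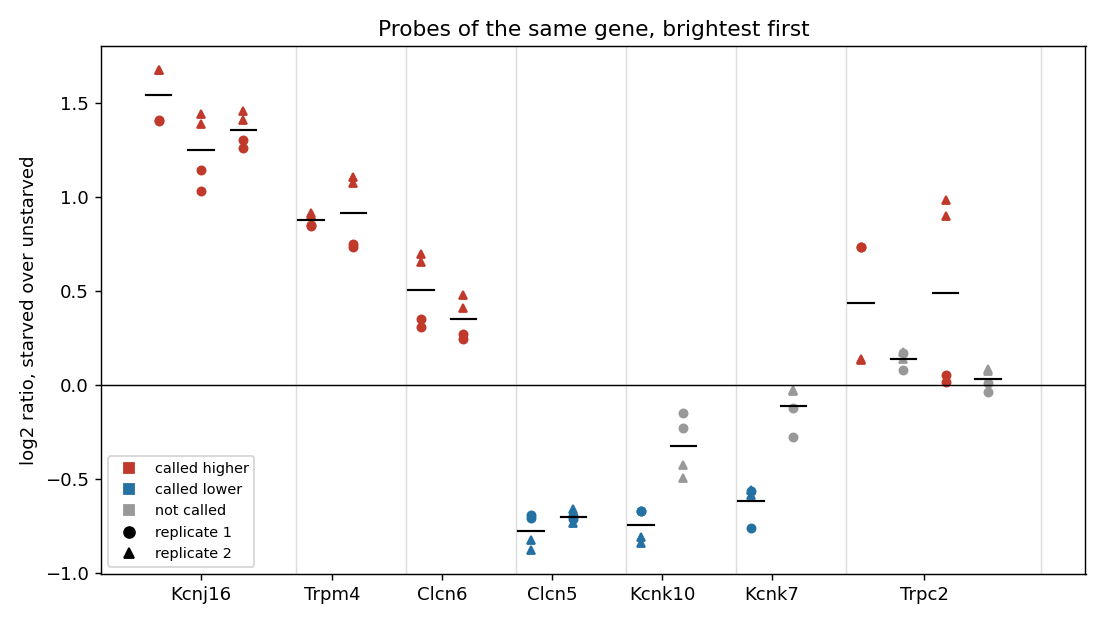
Log2 ratio of starved over unstarved cells (y axis) on the 4 arrays for each tested probe of 7 genes (x axis, brightest probe first); circles are replicate 1, triangles replicate 2, bars the mean, and colour the call. The 3 probes of Kcnj16 lie between 1.03 and 1.67, whereas the called probes of Trpc2 are split by replicate.

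The replicates were close for most large changes. Over the 73 tested channel probes, 54 had the same sign in both replicates (74.0%), against 74.2% of all tested probes. The arrays of one replicate correlated at 0.985 to 0.987 across the channel probes, and arrays of different replicates at 0.867 to 0.875; probes are not independent replicates and share their array. Replicate gaps above 0.4 in a called probe were seen for Trpv4 and for both Trpc2 probes.

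**Figure D5:**
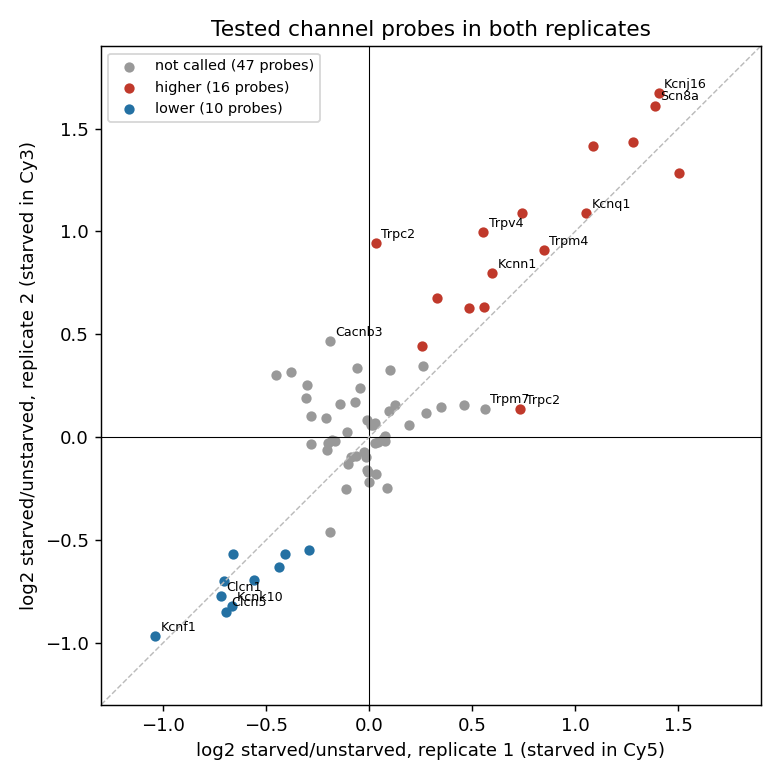
Log2 ratio of starved over unstarved cells in replicate 1 (x axis) and replicate 2 (y axis) for the 73 tested channel probes; red is higher (16 probes), blue lower (10 probes), grey not called (47 probes), and the dashed line marks equal values. Most called probes lie near the line, and the Trpc2 probes lie far to either side of it.

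Upstream sequence was available from RefSeq (GRCm38.p6) for 8 of the 11 genes called higher and 8 of the 9 called lower. The 250 bases before each start were searched on both strands for the forkhead core TGTTTAC and for the X-box core GTTGCC, bound by RFX factors. TGTTTAC was found in 0 of 26 promoters of called genes (16 and 10) and in 3.17% of all 32851 promoters. GTTGCC was found in 3 of the 16 promoters of genes called higher, 1 of the 10 of genes called lower and 10.4% of all promoters. By gene, it was found in 3 of 8 called higher (37.5%), 1 of 8 called lower (12.5%) and 11.8% of all genes. The gene called lower is Clcn1, to which the fall could not be assigned. Among channel genes tested but not called, it was found in 2 of 24 genes (8.33%) and 2 of 30 promoters (6.67%). Shares by gene also depend on how many starts were searched. The 8 genes called higher have 16 starts, against 32851 for all 27025 genes. The 3 with the motif (Clcn7, Kcnab2 and Kcnj16) each have several starts. Whether these shares differ was not tested. Kcnj16 has 4 starts in the table, and the last holds the X-box core at 2 places, printed in capitals as its reverse complement. The stretch is shown because all 3 probes of Kcnj16 were called higher.
Kcnj16 promoter, GRCm38.p6, chr11:111023610-111023859, + strand: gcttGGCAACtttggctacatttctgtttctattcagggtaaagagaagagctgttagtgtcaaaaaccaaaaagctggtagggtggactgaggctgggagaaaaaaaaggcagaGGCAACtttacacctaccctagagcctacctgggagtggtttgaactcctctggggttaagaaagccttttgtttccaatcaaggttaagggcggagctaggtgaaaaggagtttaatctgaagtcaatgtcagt

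Channels outside the name rule were counted from a separate list. Of 52 such genes on the array, 40 were tested, 7 were higher and 3 lower (25%, against 30.4% of all tested genes), and their median log2 ratio was 0.05, against 0.0056 over all tested genes. The calcium release channels Itpr3 (1.08, adjusted p = 6.00e-06) and Itpr1 (0.46, adjusted p = 0.012) were higher, as were Mcoln1 (0.94), Tpcn1 (0.60) and Tmem175 (0.36), which work in lysosomes and endosomes. Tpcn2, a relative of Tpcn1 in lysosomes, was not called (0.07, adjusted p = 0.751), and Mcoln2 and Mcoln3 were not tested. Of the chloride and anion channels in the list, Tmem16a, now Ano1, fell by 1.998 (adjusted p = 2.73e-09), Cftr fell by 1.18 (adjusted p = 1.66e-06) and Lrrc8c fell by 0.41 (adjusted p = 0.0293). Clic5 (0.56) and Lrrc8e (0.58), of the same kind, were higher, and Best1 (0.08) and Best2 (-0.29) were among those not called. The listed gene named Clca1 on the array, now Clca3a1, was not called either (-0.07). Pkd2, the polycystin channel of cilia, was not called (0.22, adjusted p = 0.242).

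Of 31 pump and exchanger genes, 20 were tested, 2 were higher and 3 lower (25%, median -0.04). Atp1b1, a beta subunit of the sodium-potassium pump, was higher (0.71, adjusted p = 4.14e-04), and Fxyd5, a regulator of it, fell by 1.95 (adjusted p = 3.40e-09). Of 36 genes for channel partners, 25 were tested, 5 were higher and 3 lower (32%, median -0.07). Both shares stand against the 30.4% of all tested genes. Gem, a small GTPase that inhibits calcium channels, was higher (1.05, adjusted p = 1.33e-05). Fgf13, a sodium channel-binding protein, was well above background on 0 arrays in starved cells and 4 arrays in unstarved cells.

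All 11 collecting duct and epithelial markers on the array were tested. Avpr2 (1.11), Cdh1 (0.67) and Cdh16 (0.50) were higher in starved cells, Krt19 (-0.90) and Krt8 (-0.64) were lower, and Aqp2 was not called (-0.19). Their summed level was 467860 to 559813 in starved cells and 585798 to 649619 in unstarved cells. Most of this sum is Krt8 and Krt18, with log2 levels of 17.2 and 17.3 in starved and 17.8 and 17.5 in unstarved cells. It therefore says little of dimmer markers such as Aqp2. Of 9 fibroblast markers, 3 were tested and 2 of these were lower, and none of 7 endothelial markers was tested. Of 8 leukocyte markers, 7 were tested, and Aif1, Csf1r and Cd14 were higher and Ptprc lower. The share called of the tested markers was 45.5% for the epithelial, 66.7% for the fibroblast and 57.1% for the leukocyte list. Of all tested genes, 30.4% were called. The leukocyte list summed to 16772 to 19126 in starved cells and 8661 to 9023 in unstarved cells. The part of these markers in the channel results was not tested.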

How the data were processed

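The deposited spot intensity values are mean signals and median local backgrounds written by Feature Extraction (Agilent, version 9.5.3.1), as the file headers state; per the file headers they are neither background-subtracted nor dye-normalized. The deposited flags for background, saturation and outliers (other values) come from the same files, in which 0 spots were saturated. The files of the 2 samples on an array were identical, and each sample's dye label chose its channel. The series text speaks of a dye swap within each pair, but by the labels each replicate has 1 dye orientation; the labels were followed. All 4 arrays share 1 scan, per the file headers, so no batch could be tested.

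Background correction was by normexp with an offset of 50, followed by within-array loess, in limma 3.58.1 (R 4.3.3). Control spots (1639 of 45018) and 583 flagged spots over 4 arrays were left out, and spots of a probe averaged. Both arrays of each replicate were averaged, and the 2 log2 ratios were fitted with lmFit and eBayes, two-sided, adjusted over 24598 probes; prior degrees of freedom were 16.4 and the prior SD 0.18. Standard errors are moderated, with n = 2. They draw mainly on the spread over all probes, so they do not measure the gap between the replicates of a single gene. Single-channel levels come from loess and Aquantile; bounds use the lowest signal well above background on each array and can carry dye bias. The steps were tested on simulated data. The number of arrays limits the precision.

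Named genes are all members with a called probe, those above background in 1 group only, the brightest uncalled member of each class, and members with a textbook role in tubule, cilium or epithelium. Some members' own values are not reported here. Members and lists were chosen with earlier results of these data known. Of 152 gene names, 140 matched a current symbol in the RefSeq table. Probe positions are mm8 and no annotation of that build was used, so exons and UTRs were not assigned. The deposited value table gives linear intensity: the processed signal times 1 factor per array (0.753 to 0.806), with a lowest value of 15 and column medians of 75.9, 75.5, 77.1 and 75.4 in starved and 74.7, 74.8, 75.7 and 74.8 in unstarved samples. Its direction follows the dye labels, and the reason for its factors stays unknown. Same-numbered samples deviated from group means with a correlation of -0.33; they carry opposite dyes, so this cannot test pairing.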

Additional observations from a re-analysis of the deposited data

How the results depend on the processing

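All 20 genes with a called brightest probe kept their direction under every alternative run for them. Median centring in place of loess left 375 of all tested probes called, with 3 channel probes higher and 0 lower; Kcnj16 and Scn8a were among the 3 genes that kept their calls and the other 17 genes lost them, the cause was not tested, and the median of all probes moved to -0.07. Of called channel probes, 100% were then higher, against 61.5% in the loess fit. Other pairings of the arrays called far more: 21745 of all probes, 31 channel probes higher and 27 lower for arrays 1+2 and 3+4; 21481, 30 and 29 for 1+4 and 2+3; and 21629, 31 and 26 with a dye term. These fits take their spread from the repeat runs, not from the replicates. Averaging the probes of each gene left 10 genes higher. Requiring signal above background in both groups left 68 channel probes, 14 of them higher and 9 lower (33.8% called, against 28.7% of all probes). Kcnf1 and Scn8a were among those left out. With no replicate block (single channels unpaired), 8587 of all probes, 15 channel probes higher and 11 lower were called; with the replicate as a random block, 7610, 14 and 10, and Kcnab2 (adjusted p = 0.054) and Trpc2 (0.0528) lost their calls while Trpv2 gained one (0.0359). Trpc2 also lost its call with Agilent's processed signals (0.0692), the value table (0.0685) and averaged probes (0.0856). Leaving out 1 array gave 15 to 16 channel probes higher and 10 lower. With 1 replicate left there is no test; the channel median was 0.069 without replicate 1 and -0.0042 without replicate 2. Uncalled genes changed sign: Clcn2 was -0.048 with median centring and -0.022 with the processed signals and the value table; Kcnj4 was -0.0053 with median centring and -0.030 with averaged probes; Trpc4ap was -0.30 and -0.018 under the same settings; Cacna1h was -0.011 without array 1 and -0.039 without array 2. Leaving out 1 replicate gave ranges across 0 for Cacna1h (-0.018 to 0.078), Kcnh2 (-0.11 to 0.025), Kcnj4 (-0.0084 to 0.070), Kcnk5 (-0.31 to 0.19), Cacnb3 (-0.19 to 0.47), Clcn2 (-0.14 to 0.16), Kcnmb4 (-0.25 to 0.085) and Trpm6 (-0.070 to 0.17). A slide or scan block could not be fitted, since all arrays share both. Signal over background limits the rest: 179 of 252 channel probes could not be tested.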
